A study of Mus musculus with 27 samples.

Results

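The comparison described here sets untreated KUSA4b10 cells at 6 h against untreated KUSA4b10 cells at 1 h. KUSA4b10 is a mouse line of marrow stromal cells, the bone marrow cells that can become osteoblasts. The arrays were chosen by their titles: 3 control arrays at 6 h and 3 control arrays at 1 h, 6 of the 27 arrays of the series. The whole series also holds 3 untreated arrays at 24 h and cells given PTH(1–34) at 10 nM or PTHrP(1–141) at 20 nM for 1, 6 or 24 h, with 3 arrays in each of 9 groups. All cells were of this 1 line and none of the groups carried a transgene or deletion by the labels. The untreated cells received no peptide, and the labels do not say what was done to them at the start of the time course. Total RNA was measured on 1-colour Affymetrix arrays, and every value below is a log2 intensity unless another scale is named. Whether replicates came from separate cultures is not labelled, and the p-values therefore rest on a spread among arrays that may be technical.

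Cells in culture answer a stimulus within minutes by transcribing immediate early genes, whose products are mostly transcription factors of the AP-1 (Fos and Jun), EGR, NR4A and KLF families. Their transcripts are short-lived, and a second set of genes, among them MAP kinase phosphatases and mRNA decay factors, shuts the same pathways off. Other programmes that respond within hours are the amino acid and unfolded protein responses, in which ATF4, XBP1 and ATF6 raise genes of amino acid supply and of endoplasmic reticulum chaperones, and the hypoxia response, in which HIF1 raises glycolytic genes. In osteoblast-lineage cells many immediate early genes are also targets of parathyroid hormone, so their level in untreated cells is the background for that response.

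Regions upstream of immediate early genes with large falls are shown. Promoters of such genes are known for letters bound by factors that growth factor and cAMP signals act on. Sequences are RefSeq entries on build GRCm38.p6, 300 bases each, 250 before to 50 after a gene's start, printed on the gene's strand. Capitals mark matches, on either strand, to the CArG box bound by serum response factor and to TGACG, the half-site of the cAMP response element, which is CGTCA on the other strand. In Ankrd37, the gene that rose most, capitals mark ACGTG, the core letters of the hypoxia response element. The entry of Ccng2, the gene with the next largest rise, held 0 matches to any of the letters sought, ACGTG included, and is not printed. Fosb lies on the minus strand at chr7:19309996-19310295, Egr2 on the plus strand at chr10:67537619-67537918, Nr4a1 on the plus strand at chr15:101266596-101266895, Junb on the minus strand at chr8:84978699-84978998 and Ankrd37 on the minus strand at chr8:45999801-46000100. Egr2 had 5 entries and the one with the most matches is printed. Egr1, Egr3 and Ier2 are named only, as is Errfi1, which fell more than Nr4a1 and Junb but is not among the immediate early genes listed.
Fosb: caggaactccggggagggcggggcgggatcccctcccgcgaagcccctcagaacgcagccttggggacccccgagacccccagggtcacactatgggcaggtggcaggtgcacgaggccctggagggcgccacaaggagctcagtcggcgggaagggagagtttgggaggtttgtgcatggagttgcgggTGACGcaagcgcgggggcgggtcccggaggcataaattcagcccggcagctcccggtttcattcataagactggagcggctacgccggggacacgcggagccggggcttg
Egr2: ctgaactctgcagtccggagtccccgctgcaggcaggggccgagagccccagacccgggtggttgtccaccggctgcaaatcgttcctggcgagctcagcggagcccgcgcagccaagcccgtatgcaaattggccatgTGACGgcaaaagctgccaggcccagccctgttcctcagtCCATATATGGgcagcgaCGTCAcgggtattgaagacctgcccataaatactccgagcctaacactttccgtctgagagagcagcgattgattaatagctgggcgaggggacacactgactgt
Nr4a1: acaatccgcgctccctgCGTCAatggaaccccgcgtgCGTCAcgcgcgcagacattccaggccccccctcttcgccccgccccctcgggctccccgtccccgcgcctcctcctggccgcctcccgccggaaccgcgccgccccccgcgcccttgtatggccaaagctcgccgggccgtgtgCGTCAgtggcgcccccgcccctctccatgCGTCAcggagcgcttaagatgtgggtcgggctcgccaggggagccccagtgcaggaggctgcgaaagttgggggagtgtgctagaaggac
Junb: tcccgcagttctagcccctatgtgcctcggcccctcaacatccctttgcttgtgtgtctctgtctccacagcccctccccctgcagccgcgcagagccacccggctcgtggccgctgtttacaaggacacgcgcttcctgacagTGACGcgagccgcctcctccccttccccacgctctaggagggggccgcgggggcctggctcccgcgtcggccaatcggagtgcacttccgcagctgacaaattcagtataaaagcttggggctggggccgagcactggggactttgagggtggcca
Ankrd37: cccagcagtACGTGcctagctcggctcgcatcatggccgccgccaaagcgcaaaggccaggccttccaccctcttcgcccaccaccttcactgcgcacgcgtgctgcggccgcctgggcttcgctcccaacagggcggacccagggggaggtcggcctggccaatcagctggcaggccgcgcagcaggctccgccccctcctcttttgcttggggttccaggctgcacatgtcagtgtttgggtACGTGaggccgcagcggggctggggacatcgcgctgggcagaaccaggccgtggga

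The printed Egr2 region held 1 CArG box and 2 TGACG matches, the Nr4a1 region 4 TGACG matches, and the Fosb and Junb regions 1 TGACG match each. Of the immediate early genes that were lower at 6 h, 8 had entries, and 7 of these (87.5%) held TGACG in at least 1 entry. Among the tested genes with entries, 31.8% held it, as did 47.3% of those called lower and 31.8% of those called higher. A CArG box was in 12.5% of the 8 genes, in 1.59% of the tested genes, in 3.8% of those called lower and in 0 of the 88 called higher. The full element TGACGTCA was in none of the 8 genes, in 3.15% of the tested genes and in 7.61% of those called lower. Errfi1 and Btg2, both called lower, held it. Among the genes called higher it was in 2.27%. TGANTCA was sought with any base at N, a pattern that includes the AP-1 site but is wider than it. It was in none of the 8, in 6.94% of the tested genes, in 6.52% of those called lower and in 4.55% of those called higher. ACGTG was sought after the values were seen, and was in 35.2% of the genes called higher, 32.1% of those called lower and 27.2% of those tested. CACGTG, the E-box, contains it, and stood in 15.9%, 15.8% and 10.8% of the same sets. A gene with several entries had more chances of a match, and a match is not a bound site.

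The quality measures of the 6 arrays were as follows. Array medians were 88.1 ± 0.75 at 6 h and 87.2 ± 1.08 at 1 h on the linear scale (SD, n = 3 each, two-sided exact permutation p = 0.4). Correlations of log2 values across genes, which are not independent replicates, were 0.9924 to 0.9956 between the times, 0.9964 to 0.9974 among the 6 h arrays and 0.9957 to 0.9971 among the 1 h arrays. The difference of the 3' and 5' probe sets of Actb, which rises when RNA is degraded, was 0.254 ± 0.046 at 6 h and 0.229 ± 0.022 at 1 h (exact p = 0.5), and that of Gapdh was -0.198 ± 0.016 and -0.178 ± 0.010 (exact p = 0.1, the smallest that 3 against 3 can give), with no overlap between the times. Whether RNA quality had a part in the results was not tested. Replicate 1 at 1 h stood apart for some gene groups. It was the highest of the 1 h arrays for all 25 tested genes of the unfolded protein and amino acid response. It was also the highest for 15 of 19 interferon-stimulated, 17 of 30 immediate early and 18 of 27 glycolysis and hypoxia genes. By contrast it was so for 1 of 30 genes of the G1/S transition, and for 27.2% of all genes. Of 99 called genes followed with each of the 6 arrays left out in turn, 60 kept their call every time. The other 39 lost it at least once, 36 of them without replicate 1 of 1 h, 26 to 31 without any 1 array of 6 h or without replicate 3 of 1 h, and 13 without replicate 2 of 1 h. Centring the arrays on their medians ended the calls of Epha2, Fzd7, Irs1, Klf9, Mxi1, Myc, Nkd2, Pde4b, Relb, Rrs1 and Skil (adjusted p from 0.0507 to 0.139), all among those 39.

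Some marrow stromal markers were bright at both times. The listed markers Ly6a and Runx2 were not tested, and the genes named here do not by themselves establish the cell type. Of 13 marrow stromal markers tested, the collagen genes Col1a1 and Col1a2 averaged 14.75 and 14.55 at 6 h and 14.73 and 14.55 at 1 h, and Cxcl12, the chemokine of the stem cell niche, 13.10 and 13.03. The summed linear intensity of the stromal list was 79498 to 81731 at 6 h and 77053 to 81026 at 1 h. Markers of blood cells and macrophages summed to 1057.5 to 1075.3 at 6 h and 1053.4 to 1149.7 at 1 h, with the leukocyte genes Ptprc and Itgam too dim to test. Adipocyte genes were high at both times, at 13501 to 17153 and 12686 to 16481 in sum, with Adipoq, the gene of adiponectin, at 11.38 ± 0.30 at 6 h and 11.41 ± 0.35 at 1 h. Markers tested numbered 13 for stromal, 10 for blood, 8 for endothelial, 9 for adipocyte, 7 for cartilage and 6 for muscle cells. With limma, 0 of them were called between the times, against 2.27% of all genes, a share at which few calls are due. At an unadjusted p under 0.05 there were 3, all stromal, against 11.6% of all genes. On bulk arrays, fewer cells of a type and less RNA per cell cannot be told apart.

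**Figure D1:**
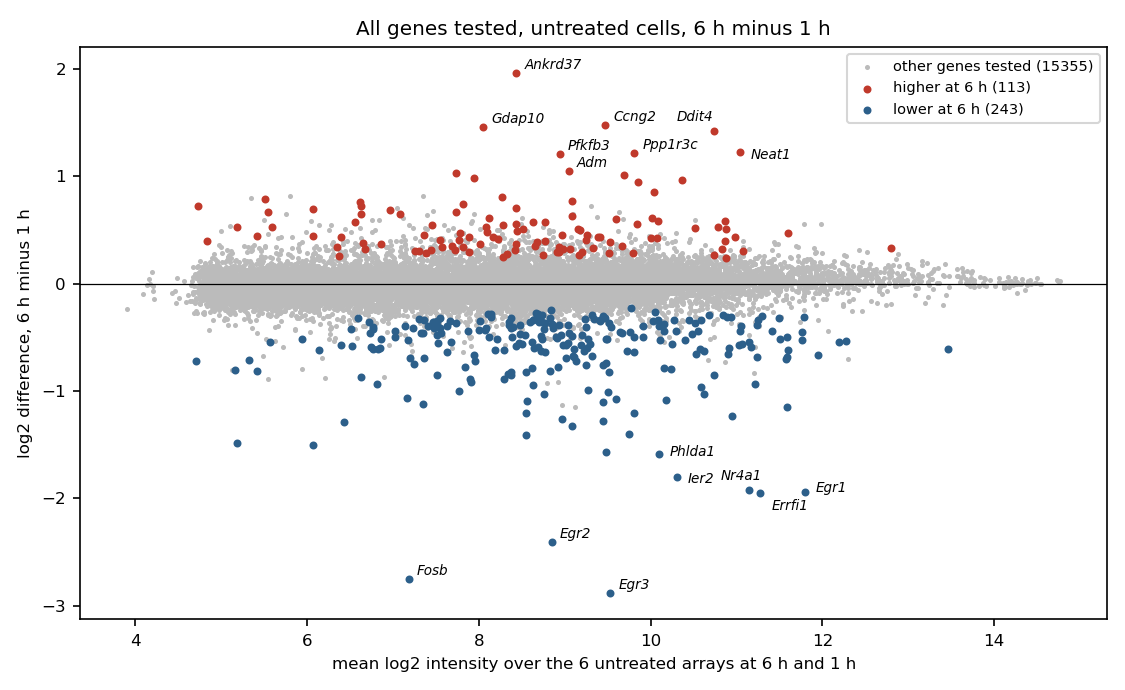
Log2 difference of untreated cells at 6 h minus 1 h (vertical) against the mean log2 intensity over the 6 arrays (horizontal), 1 point per gene tested. Red points are the 113 genes called higher and blue points the 243 called lower. On the probe set used for each gene, the decreases reached 2.88 log2 units (Egr3) and the increases 1.96 (Ankrd37).

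The decreases at 6 h were the larger and the more numerous, and the genes at their head were immediate early genes and their feedback inhibitors. Of 15711 genes tested, 2.27% differed at an adjusted p under 0.05, 0.719% higher and 1.55% lower, as the plot of difference against intensity shows. By over 2-fold, 40 genes were called (0.255%), 30 lower (0.191%) and 10 higher (0.0636%). The arrays of the times did not overlap for 23.1% of genes, 10.4% in the higher and 12.6% in the lower direction, and 11.6% had an unadjusted p under 0.05. The median difference over all genes was -0.01 log2 units, and RMA sets arrays to a common distribution, so a shift shared by most transcripts would not be seen.

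**Figure D2:**
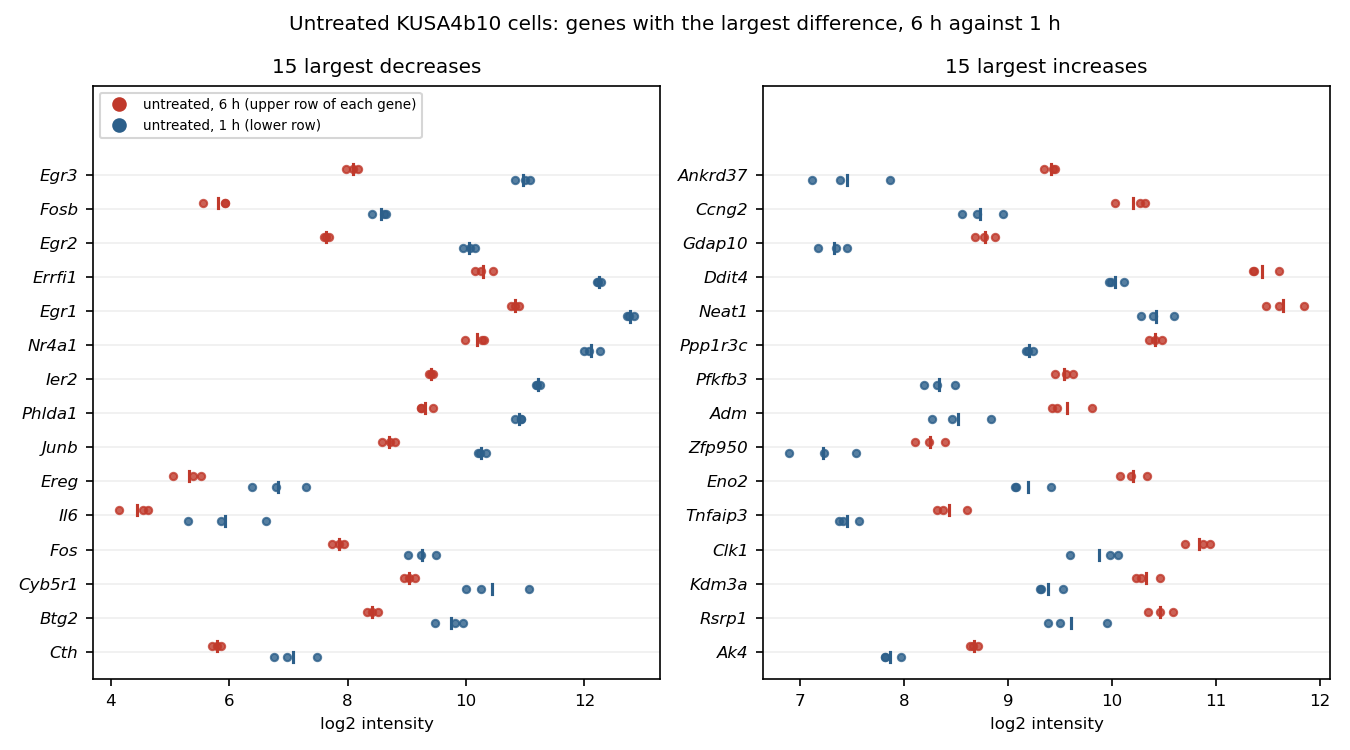
Log2 intensity on single arrays of untreated cells for the 15 genes with the largest decrease (left) and the 15 with the largest increase (right). Each gene has its 3 arrays at 6 h in the upper row and its 3 arrays at 1 h in the lower row, and bars mark the means. The rows do not overlap for any of the 30 genes, a condition of their choice, and the 1 h arrays of Il6, Cyb5r1 and Ereg are spread most widely.

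Factors of the EGR family and Fosb had the largest falls. Egr3, an EGR zinc finger factor, had 8.18, 8.09 and 7.97 on the 6 h arrays, against 10.83, 10.99 and 11.08 on the 1 h arrays, so that its 6 h intensity was 0.136 of that at 1 h. This holds for the brighter of its 2 probe sets. The other Egr3 probe set averaged 7.92 at 6 h and 8.16 at 1 h, a difference of -0.24 (adjusted p = 0.388 over all probe sets), and the mean of both fell by 1.56, which is less than the falls of Fosb and Egr2. Fosb, the AP-1 subunit whose promoter is printed above, had 5.56, 5.94 and 5.92 at 6 h, against 8.61, 8.65 and 8.41 at 1 h. It was near the floor of the array by 6 h, where fold changes can be understated. Egr2 had 7.69, 7.63 and 7.60 at 6 h, against 10.15, 9.95 and 10.06 at 1 h. Egr1, the founding member of the family, had 10.76, 10.90 and 10.84 at 6 h, against 12.75, 12.84 and 12.73 at 1 h, and fell by 1.94 ± 0.15 (SE here and below, adjusted p = 7.85e-09). Egr4, the remaining member, differed by -0.03 (adjusted p = 0.982), and the corepressor genes Nab1 and Nab2, which restrain EGR factors, were not called.

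Of 30 immediate early transcription factor genes tested, 13 fell (against 1.55% of all genes) and 1 rose, with a median difference of -0.36 log2 units against -0.01 over all genes. The arrays did not overlap for 20 of them in the lower direction, against 12.6% of all genes. Nr4a1, an orphan nuclear receptor, had 10.31, 10.27 and 9.99 at 6 h, against 12.08, 11.99 and 12.27 at 1 h, and fell by 1.92 ± 0.13. Its relative Nr4a2 differed by -0.62 (adjusted p = 0.231) and Nr4a3 by 0.04 (adjusted p = 0.977). Within the NR4A family a large difference was thus measured for 1 of 3 genes, although the differences between these genes were not tested. Ier2, a short-lived nuclear protein, had 9.38, 9.41 and 9.44 at 6 h, against 11.20, 11.19 and 11.25 at 1 h, with a spread under 0.1 at either time.

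The AP-1 family had 5 of 12 members lower (against 1.55% of all genes) and 0 higher (against 0.719%). Junb fell by 1.57 ± 0.11, with 8.57, 8.71 and 8.79 at 6 h against 10.34, 10.20 and 10.24 at 1 h. Fos fell by 1.41 ± 0.15 and Jun by 0.83 ± 0.13. Jdp2, a repressor that pairs with Jun, fell by 0.63 ± 0.11, or by 0.30 in the mean of its probe sets. Not all members passed: Jund differed by -0.24 (adjusted p = 0.103) and Fosl2 by -0.26 (adjusted p = 0.205). Among other factors, Hes1, a Notch target repressor, fell by 0.95 ± 0.12, Klf10 by 0.89 ± 0.11, Klf4 by 0.60 ± 0.14 and Mafk by 0.37 ± 0.09. Klf4 lost its call without replicate 1 or 3 of either time (adjusted p up to 0.164), and Mafk without any array but replicate 2 of 1 h (up to 0.118).

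Myc was the exception. This driver of growth and ribosome synthesis rose by 0.51 ± 0.13, with 11.25, 11.10 and 11.05 at 6 h against 10.60, 10.59 and 10.68 at 1 h (adjusted p = 0.0305). The groups did not overlap, but the call was lost without any single array (adjusted p up to 0.163). Of 25 ribosome biogenesis genes, 1 rose and 1 fell (against 0.719% and 1.55% of all genes), with a median of 0.02. Utp20 rose by 0.33 ± 0.06. Rrs1 fell by 0.34 ± 0.08, with an adjusted p up to 0.134 without any array but replicate 3 of 1 h. Mxi1, an antagonist of Myc, rose by 0.40 ± 0.11 (adjusted p = 0.0496), and lost its call without any single array (up to 0.195).

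Some inhibitors that damp growth factor signals also fell. Of 19 MAP kinase phosphatase and Sprouty genes, 6 fell (against 1.55% of all genes), 0 rose and 13 did not pass, with a median of -0.26. Errfi1, an inhibitor of the EGF receptor kinase, had 10.26, 10.46 and 10.15 at 6 h, against 12.23, 12.22 and 12.28 at 1 h, a fall of 1.95 ± 0.10 (adjusted p = 4.31e-12). The 1 h arrays of Errfi1 lay within 0.06 of each other. Dusp5 and Dusp6, phosphatases of ERK, fell by 0.84 ± 0.10 and 0.76 ± 0.14, and Spry1 and Spry4, which block the path from receptor to ERK, by 0.79 ± 0.14 and 0.59 ± 0.11. Dusp14 fell by 0.52 ± 0.11, a call lost without replicate 2 of 6 h or replicate 1 of 1 h (adjusted p = 0.111 at most). Phlda1, a pleckstrin homology-like protein, fell by 1.59 ± 0.14. The EGF receptor ligand genes Ereg and Hbegf were the 2 members of 19 growth factor genes that fell (against 1.55% of all genes). Ereg, epiregulin, had 5.52, 5.38 and 5.05 at 6 h, against 7.30, 6.38 and 6.79 at 1 h. Hbegf fell by 0.55 ± 0.13, and lost its call without any array but replicate 3 of 6 h (adjusted p up to 0.115).

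Genes that shorten mRNA life were lower in 3 of 8 cases (against 1.55% of all genes). Btg2, a recruiter of the deadenylase complex and a brake on the cell cycle, fell by 1.33 ± 0.13, with 8.32, 8.41 and 8.51 at 6 h against 9.95, 9.47 and 9.81 at 1 h. Zfp36l2 and Zfp36, which bind AU-rich elements, fell by 0.50 ± 0.09 and 0.47 ± 0.11, the Zfp36 call being lost without replicate 2 or 3 of 6 h or replicate 1 or 3 of 1 h (adjusted p up to 0.179). In the mean of its probe sets Zfp36l2 differed by -0.25 and did not pass (0.0756). Plk3, a stress-activated kinase, fell by 0.85 ± 0.10.

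Some cytokine and NF-kappa B feedback genes fell, while most did not pass. Of 21 genes of cytokines, chemokines and prostaglandin synthase, 5 fell (against 1.55% of all genes) and 0 rose, with a median of -0.14. Ptgs2, the inducible prostaglandin synthase, had 7.87, 8.19 and 7.76 at 6 h, against 9.56, 8.89 and 8.99 at 1 h. Csf1, the macrophage growth factor that osteoclasts need, fell by 0.80 ± 0.11, and Lif, a gp130 cytokine, by 0.69 ± 0.11, or by 0.52 and 0.43 in the mean of their probe sets. Ccl2, a monocyte chemokine, fell by 0.72 ± 0.16, a call lost without replicate 1 or 3 of either time (adjusted p up to 0.0879). Il6 had 4.54, 4.13 and 4.63 at 6 h, against 6.61, 5.30 and 5.86 at 1 h, near the floor at either time, and its call was lost without any array but replicate 2 of 1 h (adjusted p up to 0.227), and also with an offset of 16 added to the intensities (0.0887).

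Of 13 NF-kappa B genes, 3 fell (against 1.55% of all genes) and 1 rose (against 0.719%). Nfkbiz, a nuclear co-activator of Il6, fell by 1.12 ± 0.18, but differed by -0.46 in the mean of its probe sets, which did not pass (adjusted p = 0.0698). Nfkbia, the classical inhibitor, and Relb, a subunit, fell by 0.31 ± 0.08 and 0.41 ± 0.11, and either lost its call without one of 4 or 5 of the 6 arrays, replicate 1 of 1 h included (adjusted p up to 0.175 and 0.209). Tnfaip3, the ubiquitin editor A20 that ends NF-kappa B signals, went the other way, with 8.38, 8.61 and 8.31 at 6 h against 7.56, 7.37 and 7.41 at 1 h, a rise of 0.98 ± 0.10 (adjusted p = 8.3e-07). Of 17 gp130 and SOCS genes, 4 fell (against 1.55% of all genes) and 0 rose, while the median was 0.01. Socs3, the inhibitor of gp130 receptors, had 8.74, 8.91 and 8.76 at 6 h, against 10.75, 9.73 and 9.78 at 1 h, where replicate 1 stood about 1 unit above the others. Cebpb, a factor of the acute phase and of adipogenesis, fell by 1.03 ± 0.11, and Pim3, a kinase, by 0.45 ± 0.06. Socs2 fell by 0.48 ± 0.10 and lost its call without replicate 1 of 1 h (adjusted p = 0.0697).

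Targets of serum response factor, MRTF and YAP, which report on actin tension, were lower in 6 of 25 cases (against 1.55% of all genes). They were higher in 0, with a median of -0.02, so most of the list stayed near the median of all genes. Ccn1, a matricellular protein, had 11.16, 11.02 and 10.87 at 6 h, against 12.24, 11.89 and 12.35 at 1 h, and fell by 0.75 in the mean of its probe sets. Ankrd1 fell by 1.03 ± 0.14, Amotl2 by 0.63 ± 0.09, the focal adhesion genes Fhl2 and Zyx by 0.56 ± 0.08 and 0.44 ± 0.08, and Ccn2 by 0.99 ± 0.23. The Ccn2 call was lost without replicate 2 or 3 of 6 h or replicate 1 or 3 of 1 h (adjusted p up to 0.14). Genes that BMP and TGF-beta signals raise were also lower: of 15 ID and inhibitory SMAD genes 4 fell (against 1.55% of all genes). Id1 and Id3, inhibitors of differentiation, fell by 0.82 ± 0.12 and 0.54 ± 0.10 and Smad7 by 0.57 ± 0.10. Skil fell by 0.64 ± 0.17 and lost its call without any single array (up to 0.15). Among the ligands and receptors themselves, 1 of 19 fell (against 1.55% of all genes), Bmp4, by 0.56 ± 0.08.

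Clock and steroid-responsive genes were split. Per1 and Dbp, a core repressor and an output gene of the circadian clock, fell by 0.88 ± 0.10 and 0.78 ± 0.13. They were the 2 calls among 18 clock genes, against 1.55% of all genes called lower. Of 22 glucocorticoid and FOXO responsive genes, 3 rose (against 0.719% of all genes) and 3 fell (against 1.55%). Sgk1, a kinase induced by steroids and serum, had 10.41, 10.36 and 10.23 at 6 h, against 11.61, 11.48 and 11.62 at 1 h, and Txnip, an inhibitor of glucose uptake, had 7.25, 7.42 and 7.13 at 6 h, against 8.32, 8.23 and 8.25 at 1 h. Klf9 fell by 0.29 ± 0.07 and lost its call without any single array (adjusted p up to 0.265). The 3 that rose were Ccng2, Ddit4 and Irs1, the last being the insulin receptor substrate, up by 0.33 ± 0.08, a call lost without any array but replicate 2 of 1 h (up to 0.202).

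**Figure D3:**
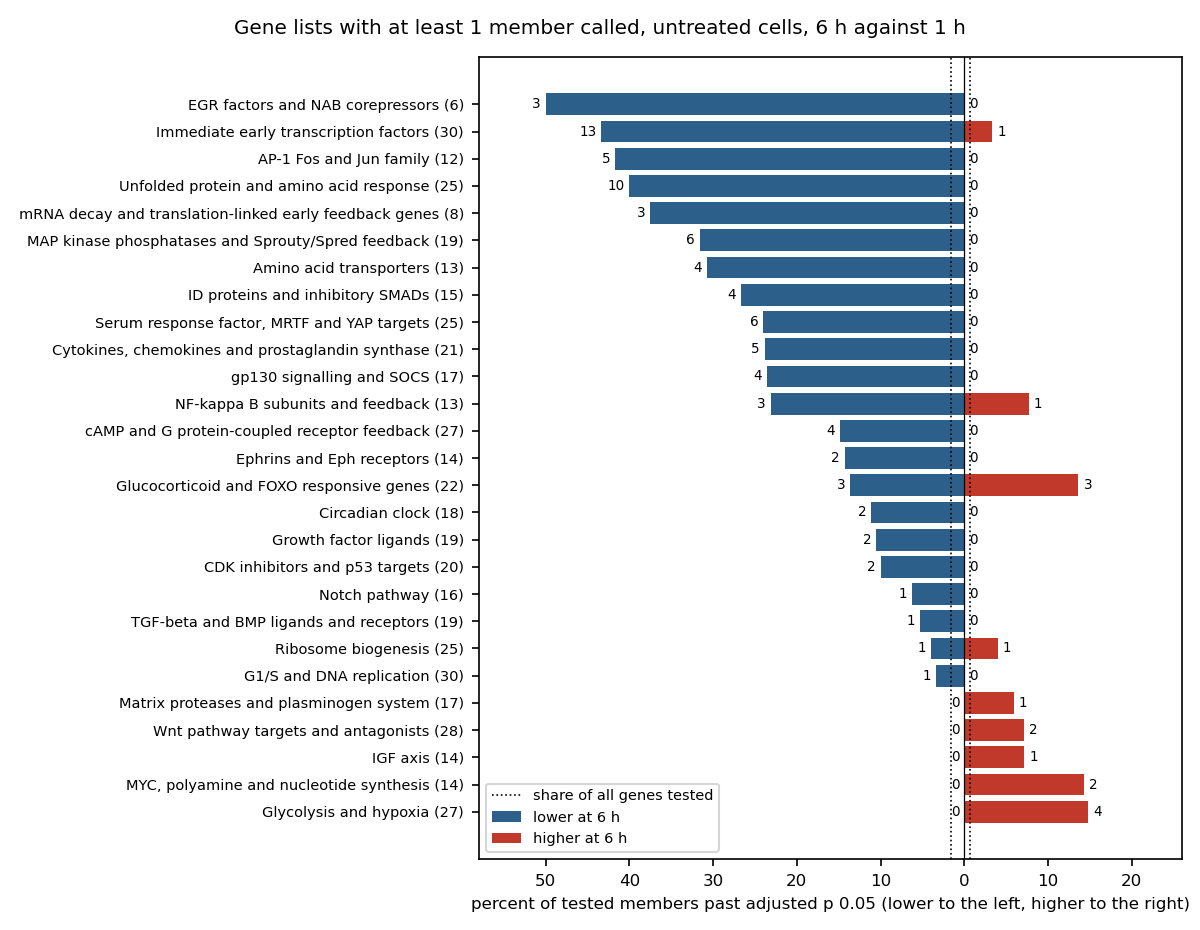
Percent of the tested members of each gene list that were called lower (blue, to the left) or higher (red, to the right) in untreated cells at 6 h against 1 h. The number of tested members is in parentheses, the counts stand at the bar ends, and dotted lines mark the shares over all genes, 1.55% lower and 0.719% higher. Lists with no member called are not drawn. The longest blue bars are those of EGR, immediate early, AP-1 and unfolded protein and amino acid response genes, and the glycolysis and hypoxia list has the longest red bar.

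Genes of the unfolded protein and amino acid response were lower at 6 h, but with a wide spread at 1 h. Of 25 tested, 10 fell (against 1.55% of all genes) and 0 rose, with a median of -0.55 log2 units, and the arrays did not overlap for 18 in the lower direction (against 12.6%). Slc3a2, the heavy chain of amino acid exchangers, had 11.53, 11.66 and 11.65 at 6 h, against 12.42, 12.11 and 12.31 at 1 h. Hspa5, the chaperone BiP, had 13.13, 13.18 and 13.16 at 6 h, against 14.00, 13.60 and 13.69 at 1 h. Sdf2l1, a partner of BiP, had 8.36, 8.32 and 8.32 at 6 h, against 10.24, 9.10 and 9.45 at 1 h, so that the 6 h arrays lay within 0.1 while the 1 h arrays spread over more than 1 unit. Replicate 1 was the highest of the 1 h arrays for each of the 25 genes. Set against the mean of the 6 h arrays, the median gene stood 0.83 higher in replicate 1 of 1 h, 0.36 in replicate 2 and 0.44 in replicate 3. Without replicate 1 of 1 h, 2 genes of the list were called lower, against 6 without replicate 3 and 14 without replicate 2 of 1 h, and 6, 6 and 5 without replicates 1, 2 and 3 of 6 h. What set that array apart was not tested.

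**Figure D4:**
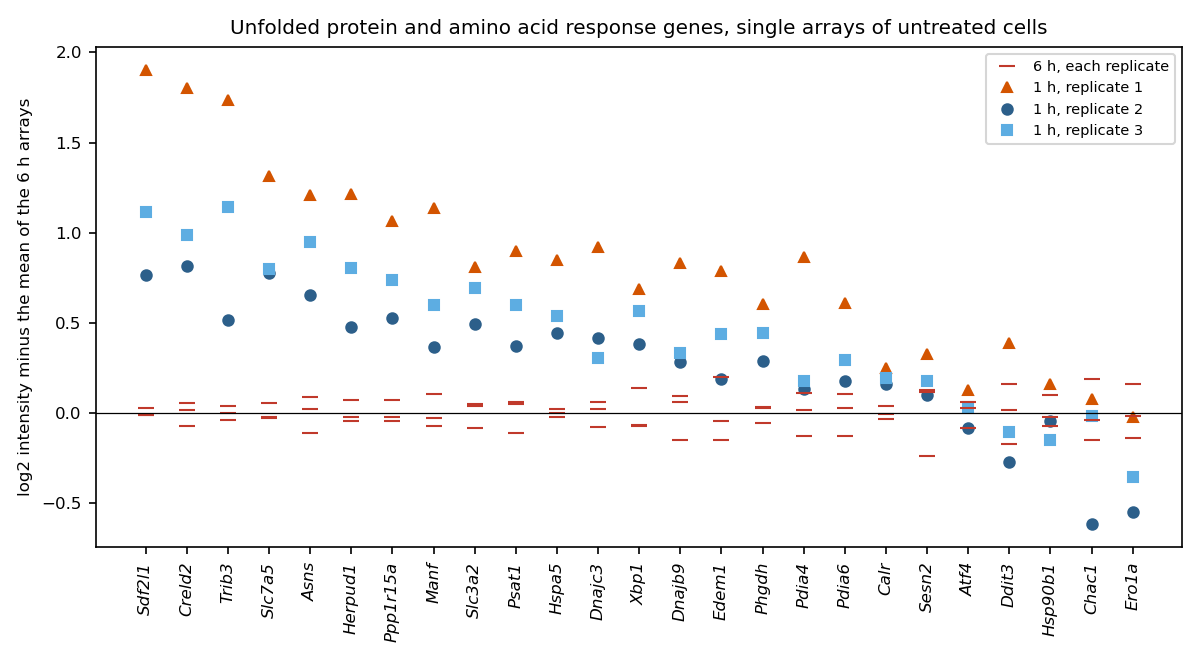
Log2 intensity on single arrays minus the mean of the 6 h arrays (vertical) for the 25 tested genes of the unfolded protein and amino acid response, ordered by their difference. Red dashes are the 3 arrays at 6 h, and triangles, circles and squares are replicates 1, 2 and 3 at 1 h. The triangles are the highest of the 1 h marks for every gene, and the 6 h dashes lie close to 0.

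The called members came from both arms of the response. Among the amino acid genes, Slc7a5, the light chain of the leucine exchanger, fell by 0.96 ± 0.17, and the synthesis genes Asns (asparagine), Psat1 and Phgdh (serine) by 0.94 ± 0.21, 0.62 ± 0.16 and 0.45 ± 0.11. The last 3 lost their calls without replicate 3 of 6 h or replicate 1 or 3 of 1 h, Psat1 and Phgdh also without replicate 1 or 2 of 6 h (adjusted p up to 0.119, 0.24 and 0.222). Averaging all probe sets of a gene gave 0.0667 for Psat1 and 0.063 for Phgdh. Of 13 amino acid transporter genes 4 fell (against 1.55% of all genes), Slc3a2 and Slc7a5 among them. The arginine transporter Slc7a1 fell by 0.85 ± 0.15 and the glycine transporter Slc6a9 by 1.10 ± 0.22 (adjusted p = 0.0616 for Slc6a9 without replicate 1 of 1 h). Of the endoplasmic reticulum genes, Creld2 fell by 1.20 ± 0.29, Xbp1 by 0.55 ± 0.11 and Ppp1r15a, the phosphatase subunit that restores translation, by 0.78 ± 0.16. Without replicate 1 of 1 h the adjusted p was 0.0545 for Xbp1, 0.0666 for Ppp1r15a and 0.0903 for Hspa5. Creld2 and Sdf2l1 also lost their calls without any 1 array of 6 h, and Sdf2l1 without replicate 3 of 1 h (up to 0.213 and 0.197). Of the 15 members not called, some had differences as large: Trib3, a pseudokinase of the stress response, differed by -1.13 (adjusted p = 0.103), Herpud1 by -0.83 (0.0568), Manf by -0.70 (0.0685) and Dnajc3 by -0.55 (0.0885). Ero1a, an oxidase of the endoplasmic reticulum, differed by 0.31 (0.452). Others were near 0: Atf4, the factor that drives the amino acid response, differed by -0.02 (adjusted p = 0.977), Hsp90b1 by 0.01 (adjusted p = 0.993) and Ddit3, the stress factor CHOP, by less than 0.01 (adjusted p = 0.999).

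The increases were led by genes known to respond to low oxygen. Ankrd37, a HIF1 target with ankyrin repeats, had 9.35, 9.46 and 9.43 at 6 h, against 7.86, 7.11 and 7.38 at 1 h, so that its 6 h intensity was 3.89 times that at 1 h (adjusted p = 2.73e-06). Pfkfb3, the kinase that sets the pace of glycolysis, had 9.45, 9.62 and 9.56 at 6 h, against 8.49, 8.32 and 8.19 at 1 h. Adm, the vasodilator adrenomedullin, had 9.42, 9.81 and 9.47 at 6 h, against 8.83, 8.27 and 8.46 at 1 h. These groups did not overlap, and the calls held with each array left out. With Hk2, hexokinase 2, up by 0.61 ± 0.11, they made 4 of 27 glycolysis and hypoxia genes that rose (against 0.719% of all genes), and 0 fell. The list's median was 0.16, and its arrays did not overlap for 14 in the higher (against 10.4% of all genes) and 0 in the lower direction.

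The rest of the list did not move as one. Bnip3, a mitophagy receptor, had 12.23, 12.29 and 12.24 at 6 h, against 11.81, 11.58 and 11.71 at 1 h, but did not pass (adjusted p = 0.0966). The glucose transporter gene Slc2a1 differed by 0.47 ± 0.21 (adjusted p = 0.341) and Pdk1, which keeps pyruvate from mitochondria, by 0.31 ± 0.17 (adjusted p = 0.504). Vegfa, the angiogenic factor, and Car9, a carbonic anhydrase, both known HIF1 targets, differed by -0.17 and -0.15 (adjusted p = 0.661 and 0.914). The glycolytic enzyme genes Pgk1 and Aldoa differed by 0.05 and 0.00, and Hif1a itself by 0.20 ± 0.11 (adjusted p = 0.483).

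Among the other increases, Ccng2, an atypical cyclin of resting cells, had 10.32, 10.27 and 10.03 at 6 h, against 8.95, 8.55 and 8.70 at 1 h. Ddit4, the inhibitor of mTORC1 also called REDD1, had 11.36, 11.37 and 11.61 at 6 h, against 10.12, 9.99 and 9.98 at 1 h. Both are known to rise in low oxygen and through FOXO factors. Ppp1r3c, which brings a phosphatase to glycogen, rose by 1.22 ± 0.11, with 10.48, 10.36 and 10.41 at 6 h against 9.24, 9.17 and 9.20 at 1 h. Eno2, an enolase, rose by 1.01 ± 0.15, and Kdm3a, a histone demethylase, by 0.94 ± 0.13. Ak4, a mitochondrial adenylate kinase, rose by 0.81 ± 0.18 and lost its call without replicate 1 or 3 of 6 h or 2 or 3 of 1 h (adjusted p up to 0.0679), and 1 of its 4 tested probe sets had the opposite sign, with a rise of 0.36 in the mean of its probe sets.

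Other genes that rose were of mixed roles. Neat1, the long noncoding RNA that builds paraspeckles, had 11.48, 11.85 and 11.61 at 6 h, against 10.60, 10.39 and 10.28 at 1 h, a rise of 1.22 ± 0.17, although 1 of its 2 probe sets had the opposite sign and was not called, and their mean rose by 0.57. Gdap10, a transcript with no role given here, rose by 1.46 ± 0.22. Clk1, a kinase of splicing factors, rose by 0.96 ± 0.23 and Zfp950, a zinc finger gene, by 1.03 ± 0.25, and either lost its call without any array but replicate 2 of 1 h (adjusted p up to 0.153 and 0.161). Rsrp1, an arginine and serine rich protein, rose by 0.85 ± 0.15, with 1 of 3 probe sets of opposite sign, and by 0.53 in the mean of all its probe sets, as Zfp950 did by 0.56. Of 28 Wnt pathway genes 2 rose (against 0.719% of all genes), the antagonist Nkd2 by 0.52 ± 0.13 and the receptor Fzd7 by 0.40 ± 0.10. Plat, the tissue plasminogen activator, rose by 0.42 ± 0.10. These 3 lost their calls without any one of 4 to 6 of the 6 arrays (adjusted p up to 0.198, 0.116 and 0.122), the list for Nkd2 being all 6 h arrays and replicate 1 of 1 h, and for Plat all but replicate 1 of 1 h. In the mean of all probe sets Fzd7 and Plat differed by 0.18 and 0.16 and did not pass (adjusted p = 0.135 and 0.366).

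Genes of bone, matrix and cell division showed few or no calls. Of 21 osteoblast and osteocyte genes 0 were called, with a median of -0.00229, and the largest difference was that of Dmp1, an osteocyte matrix protein, at -0.93 (adjusted p = 0.199), with a spread of 0.52 (SD) at 6 h and 0.07 at 1 h. Of 29 extracellular matrix, 23 mitotic, 19 cholesterol synthesis, 14 heat shock, 13 NRF2 and 19 interferon-stimulated genes, 0 were called with limma. The share called over all genes was 2.27%, so few calls are due in lists of this size. The arrays did not overlap for 7 mitotic genes in the lower (against 12.6% of all genes) and 0 in the higher direction. For matrix genes these counts were 2 in the lower and 9 in the higher direction (against 10.4%). At an unadjusted p under 0.05 there were 3 osteoblast, 2 matrix, 5 mitotic, 2 cholesterol, 3 heat shock, 4 NRF2 and 4 interferon-stimulated genes, against 11.6% of all genes. Of 30 genes of the G1/S transition 1 fell (against 1.55% of all genes). It was Ccnd1, cyclin D1, down by 0.33 ± 0.08, a call lost without any array but replicate 1 of 6 h (adjusted p up to 0.25). Hspa1a, an inducible heat shock gene, showed 1 high array, with 7.33, 8.38 and 6.47 at 6 h against 6.93, 6.68 and 6.46 at 1 h. Actb differed by 0.05 (adjusted p = 0.884). Gapdh was not tested as a gene, since its probe sets here carry several symbols.

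The receptor for parathyroid hormone and its feedback genes were also measured. Pth1r, the receptor gene, had 11.29, 11.39 and 11.38 at 6 h, against 11.02, 11.19 and 11.14 at 1 h, arrays that did not overlap but did not pass (0.24 ± 0.09, adjusted p = 0.272). Efnb2, the ephrin B2 gene named in the title of the study, had 7.39, 7.05 and 6.93 at 6 h, against 7.72, 7.19 and 7.13 at 1 h, which overlapped (-0.22 ± 0.16, adjusted p = 0.716). Of 14 ephrin and Eph genes 2 fell (against 1.55% of all genes), Epha2 by 0.50 ± 0.13 and Efnb1 by 0.39 ± 0.09. Either lost its call without one of 4 or 5 arrays, replicate 1 of 1 h included (adjusted p up to 0.29 and 0.0827). Of 27 cAMP and receptor feedback genes, 4 fell (against 1.55% of all genes) and 0 rose, with a median of -0.17. They were Nr4a1, the phosphodiesterase Pde4b by 0.62 ± 0.17, the G protein regulator Rgs3 by 0.49 ± 0.12 and the orphan receptor Gprc5a by 0.42 ± 0.10. The calls of Pde4b and Rgs3 were lost without any array but replicate 2 of 1 h (adjusted p up to 0.291 and 0.191), and that of Gprc5a without 4 of the 6 arrays (up to 0.168). Pde4b and Rgs3 did not pass in the mean of their probe sets, at -0.21 and -0.28 (0.19 and 0.239). Crem, Sik1 and Rgs2, which cAMP raises, differed by -0.23, -0.32 and -0.42 (adjusted p = 0.803, 0.394 and 0.139).

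**Figure D5:**
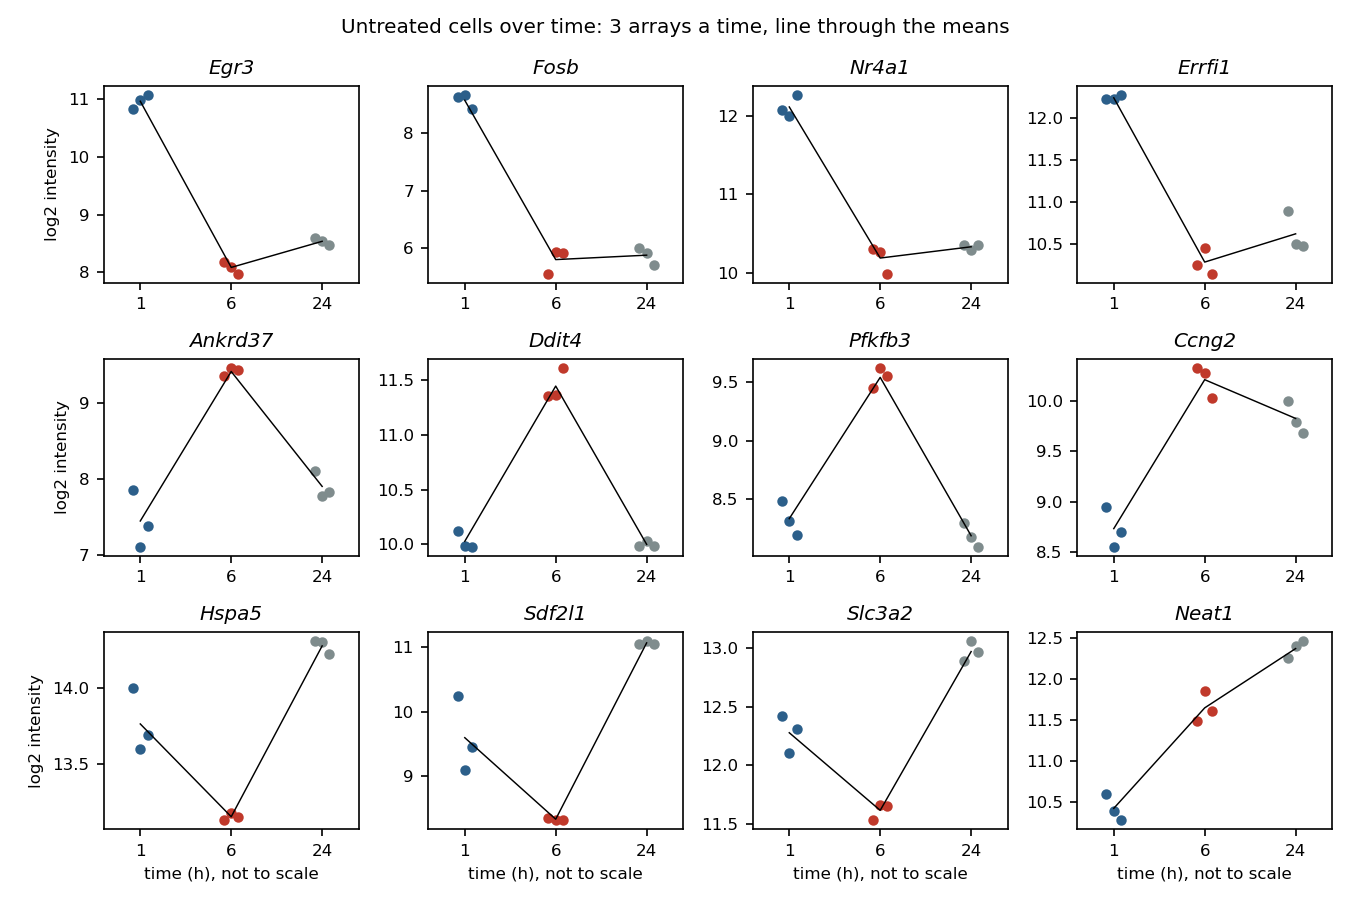
Log2 intensity of 12 genes in untreated cells at 1, 6 and 24 h (horizontal, not to scale), with 3 arrays a time as points and a line through the means. Vertical axes differ between panels. The top row was low from 6 h on, the middle row peaked at 6 h, and in the bottom row the 2 chaperone and transporter genes had their lowest level at 6 h while Neat1 was highest at 24 h.

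The 24 h arrays show where these levels went. At 24 h against 6 h, 23.4% of genes were called (12.1% higher, 11.4% lower), and at 24 h against 1 h, 23.1% (11.6% higher, 11.5% lower), so a call is commoner there than between 6 h and 1 h. These comparisons share arrays with that of 6 h and 1 h and are given only as levels and their own tests. The 3' to 5' difference of Actb was 0.386, 0.362 and 0.379 on the 24 h arrays, above the highest at 6 h (0.308) and at 1 h (0.253). That of Gapdh was -0.199, -0.218 and -0.214 at 24 h, which overlapped the 6 h arrays. Whether RNA quality had a part in the 24 h comparisons was not tested. Fosb averaged 8.56 at 1 h, 5.81 at 6 h and 5.88 at 24 h (24 h minus 6 h, 0.08 ± 0.16, adjusted p = 0.842). Nr4a1 averaged 12.11, 10.19 and 10.33 at 1, 6 and 24 h. Egr1 averaged 12.78, 10.83 and 11.58, the last 0.74 ± 0.15 above 6 h and 1.20 ± 0.15 below 1 h (adjusted p = 0.00055 and 1.46e-06).

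Several genes of the hypoxia and energy group had their highest mean at 6 h. Ddit4 averaged 10.03 at 1 h, 11.44 at 6 h and 10.00 at 24 h, and its 24 h and 1 h levels differed by less than their standard error. Pfkfb3 averaged 8.33, 9.54 and 8.19, and Ppp1r3c 9.20, 10.42 and 9.26. Ankrd37 averaged 7.45, 9.41 and 7.90. Myc averaged 10.62, 11.14 and 10.03, and at 24 h was 0.59 ± 0.13 below 1 h (adjusted p = 0.00112). Ccng2 stayed high, at 8.73, 10.21 and 9.82, and Neat1 was higher again at 24 h, at 10.42, 11.65 and 12.37.

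Several chaperone genes had their lowest mean at 6 h. Hspa5 averaged 13.76 at 1 h, 13.15 at 6 h and 14.28 at 24 h, and Sdf2l1 9.59, 8.33 and 11.06. Creld2 averaged 10.41, 9.21 and 11.76, so that the 24 h level of these genes was above even replicate 1 of 1 h. Of the 25 genes of the list 22 were higher at 24 h than at 6 h (against 12.1% of all genes), with a median of 1.12, and 0 lower. Cyb5r1, a reductase of cytochrome b5, averaged 10.44, 9.05 and 11.77 at 1, 6 and 24 h, its 1 h arrays lying at 11.07, 10.01 and 10.25. Its fall at 6 h was lost without replicate 1 of 1 h (adjusted p = 0.0877). Cebpb and Spry1 likewise had their lowest mean at 6 h, at 11.14, 10.11 and 11.47 and at 10.55, 9.76 and 11.34.

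In cells given a ligand the same interval looked different for several of these genes. With PTH and PTHrP, Egr3 fell by 5.19 and 5.12 between 1 and 6 h, against 2.88 in untreated cells, while Ddit4 changed by 0.28 and -0.21, against 1.42 in untreated cells, although Ddit4 already averaged 12.62 with PTH and 12.53 with PTHrP at 1 h, against 10.03 in untreated cells. Over all genes the change between 1 and 6 h differed from that in untreated cells for 18.5% with PTH and 12.2% with PTHrP, and the tests for the named genes stand in the closing section.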

How the data were processed

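Total RNA was hybridised to 27 arrays, of which 9 were of untreated cells. The deposited intensity values are summaries per probe set made by the authors with RMA, per the submitters' processing notes, and stand on a linear scale. Per the series' design text they were normalized again for the deposit. No source used here gives the software version or the background model.

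Of 45101 probe sets, 34958 carried 1 gene symbol. A gene took its brightest probe set (mean over all arrays), and the test covered the 15711 genes that reached a log2 value of 5 on 3 or more arrays. The test was limma's (version 3.58.1, R 4.3.3, lmFit and eBayes): 9 group means over 27 arrays, two-sided, Benjamini-Hochberg over all genes, threshold 0.05. The pipeline was tested on simulated data. The number of arrays limits the precision.

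Genes were named by rule: the 15 largest changes each way among called genes with no overlap, up to 8 members per list with the largest difference, and Efnb2, Pth1r and Actb. Further called list members are named too, and Nr4a3, Atf4, Hsp90b1, Ddit3, Vegfa, Car9, Pgk1, Aldoa, Hif1a, Crem, Col1a1 and Col1a2 were singled out after their values were seen. The members and the 40 lists were chosen with earlier results of these data known. Promoters came from RefSeq, build GRCm38.p6. Alternatives covered the arrays in the fit, the replicate block, the filter, probe sets, normalization, offset, array weights, variance trend and each array left out.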

Additional observations from a re-analysis of the deposited data

Results flagged for a closer look

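The change between 1 and 6 h differed between cells with a ligand and cells without for several of the genes that changed most. The genes were chosen for their extreme change in untreated cells, which the contrast subtracts, and over all genes 18.5% were called with PTH and 12.2% with PTHrP. The 5 genes that rose most and the 5 that fell most were tested for each ligand with limma's interaction contrast, adjusted over all genes, on 3 arrays a group. Doses and peptide lengths differ between PTH(1–34), 10 nM, and PTHrP(1–141), 20 nM.

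The EGR factors fell further with a ligand. For Egr3 the change with PTH was lower than that in untreated cells by -2.31 ± 0.21 log2 units (adjusted p = 1.39e-08), and with PTHrP by -2.23 ± 0.21 (adjusted p = 5.74e-08). In the mean of both Egr3 probe sets these were -1.19 and -1.08. For Egr2 the differences were -1.003 ± 0.21 with PTH and -1.09 ± 0.21 with PTHrP (adjusted p = 0.00101 and 0.000748). For Egr1 the difference was -0.96 ± 0.21 with PTH (adjusted p = 0.00202), and -0.48 with PTHrP, which did not pass (adjusted p = 0.161). Errfi1 fell less with a ligand, by 0.83 ± 0.14 with PTH and 0.60 ± 0.14 with PTHrP (adjusted p = 0.000126 and 0.00541).

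Ccng2 rose more with a ligand, by 0.91 ± 0.17 with PTH and 1.02 ± 0.17 with PTHrP (adjusted p = 0.000295 and 0.000138). For Ddit4, which rose in untreated cells, the differences were -1.14 ± 0.16 with PTH and -1.63 ± 0.16 with PTHrP (adjusted p = 9.6e-06 and 1.01e-07). Ddit4 averaged 12.89 at 6 h and 12.62 at 1 h with PTH, 12.32 at 6 h and 12.53 at 1 h with PTHrP, and 11.44 at 6 h and 10.03 at 1 h in untreated cells, so it was already high at 1 h with either ligand. Fosb, Ankrd37, Gdap10 and Neat1 did not pass with either ligand. Replicate 3 of PTHrP at 1 h was low for 2 of these. Gdap10 had 6.56 on it, against 7.76 and 7.94 on replicates 1 and 2, and Neat1 had 10.52, against 11.49 and 11.20.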

How the results depend on the processing

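Leaving out 1 array gave 175 to 585 calls for 6 h against 1 h (55 to 246 higher, 114 to 339 lower), against 356 (113 and 243). The lowest was without replicate 1 of 1 h, and the highest without replicate 3 of PTHrP at 1 h, which enters only the shared spread. It gave 2952 to 4083 for 24 h against 6 h and 2853 to 4140 for 24 h against 1 h, 11 to 16 immediate early, 5 to 8 phosphatase and Sprouty, 5 to 6 SRF and YAP and 2 to 14 unfolded protein and amino acid genes lower, and 4 to 5 hypoxia genes higher. The 3' to 5' difference of Actb ran from -0.000784, a reversal without replicate 2 of 6 h, to 0.0397, and that of Gapdh from -0.0248 to -0.0104.

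Counts for 6 h against 1 h (higher and lower) were 584 (230 and 354) with the 6 arrays alone, 782 (326 and 456) with the 9 untreated arrays, 638 (230 and 408) with probe sets tested singly, 546 (186 and 360) with a second quantile normalization, 527 (148 and 379) with cyclic loess, 273 (64 and 209) with arrays centred on their medians and 1307 (556 and 751) with array weights. The share higher was 31.7%, against 41.7% with 9 arrays, 42.5% with weights and 42.1% without that PTHrP array. With probe sets singly, 5980 were called for 24 h against 6 h and 6138 for 24 h against 1 h, and with weights 5614 and 5651. With weights 10 hypoxia genes were higher and 16 unfolded protein and amino acid genes lower. The replicate block gave 626 (258 and 368) calls on 6 arrays, with 16 of those genes lower, and 326 on 27 arrays. Same-numbered arrays deviated from their group means with correlations of 0.0592, -0.074 and 0.152, not every array went best with its own number, and the numbers were not taken as pairs. A further 171 recomputed values of the main results were labelled the same. Among these, counts stayed within 1.5 times of the reported count. Their 3' to 5' differences of Actb and Gapdh kept their sign, the only rule set for them. The cause of these shifts was not tested. Slide and background correction could not be varied. Falls of genes near the array floor, such as Fosb and Il6 at 6 h, may be understated. The call of Il6 was itself lost in 6 of 21 alternatives.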

Other observations

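The gene groups here were put together after the values had been seen, and are given as counts with no test of the group. Genes first named in this section, other than Cth, were not among those followed with each array left out. Whether their calls hold without single arrays was not tested. Cytosolic aminoacyl-tRNA synthetases load tRNAs with amino acids. Of their 19 genes, 5 fell at 6 h against 1 h (against 1.55% of all genes) and 0 rose, with a median of -0.36 log2 units. Cars had 8.54, 8.64 and 8.81 at 6 h, against 9.52, 9.20 and 9.35 at 1 h, and fell by 0.69 ± 0.13 (adjusted p = 0.00244). Aars fell by 0.68 ± 0.15 (adjusted p = 0.00954). Of 15 mitochondrial synthetase genes 0 were called with limma (1 at an unadjusted p under 0.05), with a median of -0.02. Replicate 1 was the highest of the 1 h arrays for 15 of the 19 cytosolic and 3 of the 15 mitochondrial genes.

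Of 22 genes of serine, glycine, proline and one-carbon metabolism, 10 fell (against 1.55% of all genes) and 0 rose, with a median of -0.57. Cth, the enzyme that makes cysteine from cystathionine, had 5.86, 5.71 and 5.79 at 6 h, against 7.49, 6.75 and 6.98 at 1 h. Mthfd2, a mitochondrial folate enzyme, had 9.53, 9.58 and 9.81 at 6 h, against 10.96, 10.49 and 10.72 at 1 h, and Psph and Gpt2 fell by 1.08 ± 0.22 and 1.09 ± 0.23. Replicate 1 was the highest 1 h array for 15 of the 22.

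Of 35 further genes known to rise in hypoxia, 11 rose (against 0.719% of all genes) and 0 fell (against 1.55%), with a median of 0.26. Beside those named above, Hilpda, a lipid droplet protein, had 9.41, 9.60 and 9.41 at 6 h, against 8.67, 8.69 and 8.75 at 1 h, and Tet1, a 5-methylcytosine dioxygenase, had 8.28, 8.06 and 8.22 at 6 h, against 7.65, 7.44 and 7.25 at 1 h.

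Of 30 genes of nuclear speckles, paraspeckles and splicing control, 5 rose (against 0.719% of all genes) and 3 fell (against 1.55%). Tardbp and Sfpq rose by 0.58 ± 0.11 and 0.32 ± 0.07, while Srsf5, Srsf6 and Cirbp, the last a cold-inducible RNA-binding protein, fell by 0.54 ± 0.08, 0.32 ± 0.07 and 0.49 ± 0.11. Of 311 genes whose symbol starts with Zfp, the mouse name for zinc finger proteins, 13 rose (against 0.719% of all genes) and 5 fell (against 1.55%). The arrays did not overlap for 107 in the higher (against 10.4%) and 25 in the lower direction (against 12.6%), with a median of 0.10.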
